A study of Rattus norvegicus with 49 samples.

Results

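The ABC export pumps of the hepatocyte were followed in the livers of rats given furan, a contaminant of heated food, by mouth. The 10 pumps were chosen by gene symbol, as Abcb1a, Abcb1b, Abcc2, Abcc3, Abcc4, Abcg2, Abcb11, Abcb4, Abcg5 and Abcg8, out of 15154 gene symbols that the array names, and 12 probes measured them, with 2 probes each for Abcb1b and Abcc4. The animals were F344 rats of both sexes, 7 to 8 weeks old at the start. Over 90 days they were gavaged on 5 days of each week with corn oil, alone for the controls or with furan at daily doses of 2, 0.5, 0.12 or 0.03 mg/kg. Each group of a sex and a dose was represented by 5 livers, except for 4 at 0.03 mg/kg in males, and 1 array of these 4 was left out because 5.06% of its spots were well above background in the liver channel, against 37.9% to 71.1% on the 48 arrays used. Liver RNA in Cy5 was hybridised against a Universal rat reference, a mixture of tissues, in Cy3, so each value is a log2 ratio of liver over reference, and levels of different genes are not compared. The arrays lay on 8 slides, of which slides 5 and 6 held 10 treated arrays and 0 controls, so slide was a block in the model. Slides 5 and 6 were also the dimmest, with median shares of 43.2% and 45%, against 49.3% to 69% on the others. They were scanned on a day of their own. Single values, and the shares of probes whose groups did not overlap, take no account of slide. All 10 hepatocyte markers listed, among them albumin, were well above background on arrays of every group. RNA came from whole liver, in which fewer cells of a type and less RNA per cell cannot be told apart.

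ABC pumps use ATP to move compounds out of cells. In hepatocytes most of the pumps described here sit in the canalicular membrane and form bile: Abcb11 exports bile salts, Abcb4 flips phosphatidylcholine, Abcg5 and Abcg8 together export sterols as a heterodimer, Abcc2 exports conjugates such as those of bilirubin and glutathione, and Abcb1a, Abcb1b and Abcg2 export drugs and other foreign compounds. Abcc3 and Abcc4 sit in the sinusoidal membrane and return conjugates and bile salts to blood. Rodents have a pair of multidrug resistance genes, Abcb1a and Abcb1b, in place of the single human ABCB1.

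The pumps that responded are shown with the DNA next to their start sites. Abcb4, Abcb1b and Abcb1a are neighbours on chromosome 4 of the GRCr8 assembly (positions 26106895 to 26164440, 26197706 to 26280156 and 26312403 to 26488456). Abcg8 and Abcg5 lie back to back on chromosome 6 (15698448 to 15717730 and 15717936 to 15743376), and 205 bases separate their starts. The RefSeq promoter table held windows for 8 of the 10 genes, and none for Abcc3 and Abcb11. In the lines here capitals mark matches, on either strand, to CCAAT (the CCAAT box), to GGGCGG (the GC box), to TATAAA (the TATA box) or to TGACNNNGC (the element that NRF2 binds), and none of the marked matches overlap. The core site of nuclear receptors, AGGTCA, was searched too and is in neither line. The first line holds the 123 bases of the Abcb1b window that precede the gene's annotated extent, on the minus strand at chr4:26280157-26280279, and the second the whole interval between the pair of sterol pump genes, read toward Abcg5 on the plus strand at chr6:15717731-15717935.
Abcb1b upstream: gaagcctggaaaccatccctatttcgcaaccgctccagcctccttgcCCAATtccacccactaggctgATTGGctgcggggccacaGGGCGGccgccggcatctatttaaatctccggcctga
Abcg8-Abcg5 interval: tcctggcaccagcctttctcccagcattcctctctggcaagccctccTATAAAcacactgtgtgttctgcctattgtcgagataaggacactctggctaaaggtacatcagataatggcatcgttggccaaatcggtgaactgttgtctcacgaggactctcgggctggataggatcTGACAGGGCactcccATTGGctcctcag
The Abcb1b stretch holds 2 matches to CCAAT and 1 to GGGCGG. In the shared interval, TGACNNNGC and CCAAT lie near the start of Abcg5 and TATAAA nearer to that of Abcg8. Over 250 bases before the start, CCAAT was present in 34% of all 33469 promoter windows, GGGCGG in 30.5%, AGGTCA in 14.1%, TATAAA in 12.9% and TGACNNNGC in 10.1%. Of the 8 pump windows, GGGCGG was present in 6, CCAAT in 4, TATAAA and TGACNNNGC each in 2, which are those of Abcg5 and Abcg8, and AGGTCA in 1, that of Abcc2. The windows of Abcg5 and Abcg8 overlap in the shared interval, so their TATAAA, their TGACNNNGC and their CCAAT are each 1 site counted in both. These matches describe letters only.

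The first question was which pumps changed at 2 mg/kg. Abcb1b rose in both sexes on both of its probes, Abcg5 rose in males, and no other pump passed the test. Tests were run on the 17128 probes, 10 of the 12 pump probes among them, that exceeded background clearly in liver on 4 or more arrays of some group. A probe was called at a Benjamini-Hochberg adjusted p of at most 0.05 in limma with a fold change of at least 1.5. In males 3 of the 10 pump probes were called at 2 mg/kg, where 5.22% of all tested probes were called. In females 2 of 10 were called, where 1.45% of all tested probes were called. The pumps were chosen with earlier results of these data known, so these counts are no test of the pumps as a set. The median log2 change over the 10 pump probes was 0.25 in males and 0.11 in females, beside -0.02 and 0.0049 over all tested probes. Without Abcb1a, whose probe was not above background on any male array, the medians over the other 9 were 0.36 and 0.12.

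Abcb1b, the inducible member of the rodent multidrug resistance pair, was measured by a probe with a brighter and a probe with a dimmer liver signal. On the brighter probe the 5 control males were at log2 ratios of 0.50, 1.11, 1.18, 1.62 and 1.76, and the 5 males at 2 mg/kg were at 2.24, 2.61, 2.61, 3.1 and 3.39. All treated males lay above all control males. The fitted log2 change, with slide as a block, was 1.68 ± 0.22 (SE), a 3.21-fold rise (limma adjusted p = 1.35e-06). On the dimmer probe the control males were at -0.73, -0.25, 0.08, 0.43 and 1.09 and the males at 2 mg/kg at 1.65, 2.29, 2.34, 3.29 and 3.77. Again the groups did not overlap, as for 2.73% of all tested probes in that direction, and the fitted change was 2.64 ± 0.40 (adjusted p = 1.21e-05), 6.22-fold. Within the 3 slides that held both a control male and a male at 2 mg/kg, slides 2, 4 and 8, the differences were 0.63, 2.21 and 2.60 on the brighter probe and 1.22, 3.69 and 4.02 on the dimmer one.

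In females the rise of Abcb1b differed more between its probes. On the brighter probe control females were at 0.87, 1.25, 1.31, 1.33 and 1.69 and females at 2 mg/kg at 0.90, 1.79, 2.12, 2.18 and 2.37. The lowest treated female, on slide 8, lay among the controls and the other 4 lay above all of them. The fitted change was 0.90 ± 0.22 (limma adjusted p = 0.016), 1.87-fold, and it was 0.58 (adjusted p = 0.142) without a slide term and 0.88 (adjusted p = 0.093) with median centring in place of loess. Leaving out female 83 at 2 mg/kg took its adjusted p to 0.0588. On the dimmer probe control females were at -1.13, -1.05, -0.97, -0.95 and -0.79 and females at 2 mg/kg at 0.08, 1.49, 1.51, 1.87 and 2.00. All treated females lay above all controls, as for 1.25% of all tested probes, and the fitted change was 2.69 ± 0.41 (adjusted p = 0.000269), 6.44-fold. Within slides 2 and 7 the female differences were 0.68 and 1.24 on the brighter probe and 2.79 and 3.00 on the dimmer one.

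**Figure D1:**
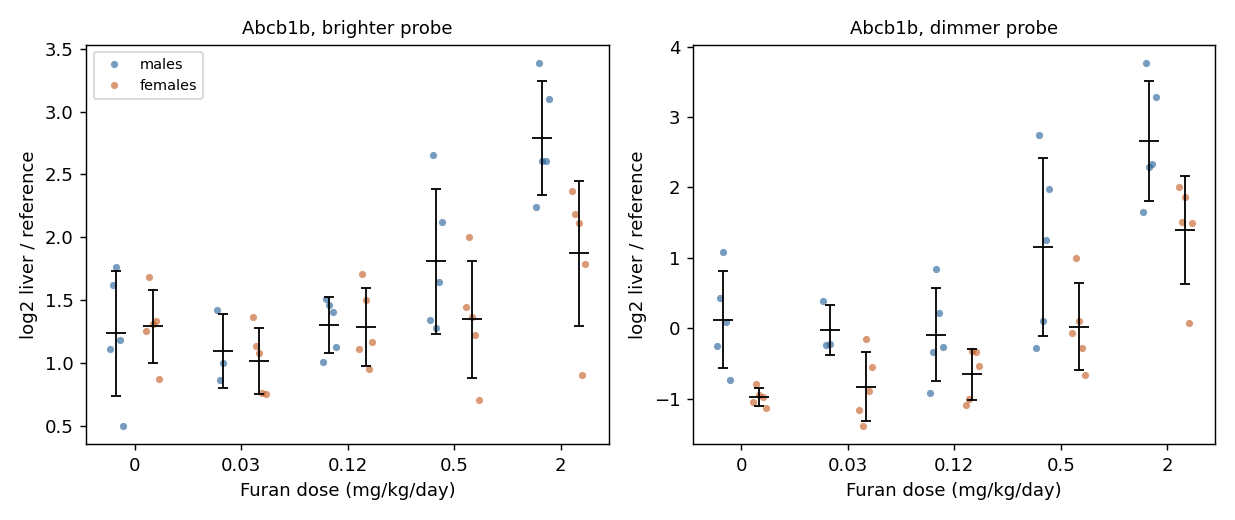
Log2 ratio of liver over reference for the brighter (left) and dimmer (right) Abcb1b probe by furan dose in mg/kg/day; points are single livers, males in blue and females in orange, and black bars are group means ± SD (n = 5, or 3 for males at 0.03 mg/kg). On the dimmer probe control females lie between -1.13 and -0.79 and females at 2 mg/kg between 0.08 and 2.00.

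At lower doses Abcb1b was not called in either sex, and its group means at 0.5 mg/kg lay between those of the controls and of 2 mg/kg. At 0.03 and 0.12 mg/kg its fitted changes lay between -0.21 and 0.59 over both sexes and probes. Males at 0.5 mg/kg were at 1.28, 1.34, 1.64, 2.13 and 2.65 on the brighter probe, with a fitted change of 0.67 ± 0.22 (limma adjusted p = 0.199). On the dimmer probe they spread from -0.28 to 2.74, with a fitted change of 1.03 ± 0.40 (adjusted p = 0.314). Males at 0.5 mg/kg thus overlapped both the controls and the males at 2 mg/kg. Females at 0.5 mg/kg were at -0.66, -0.28, -0.06, 0.11 and 1.0 on the dimmer probe, all above the control females, as for 0.496% of all tested probes, with a fitted change of 1.32 ± 0.40 (adjusted p = 0.106), and array weights took this to 1.25 with an adjusted p of 0.02. On the brighter probe the female change at 0.5 mg/kg was 0.34 ± 0.22 (adjusted p = 0.475). The step from 0.5 to 2 mg/kg was called in males, at 1.02 ± 0.22 (adjusted p = 0.00439) and 1.61 ± 0.41 (adjusted p = 0.0121) on the brighter and dimmer probe, where 1.16% of all tested probes were called; without a slide term or with median centring neither probe was. In females the same step was 0.56 ± 0.22 (adjusted p = 0.514) and 1.37 ± 0.40 (adjusted p = 0.308), where 0.0117% of tested probes were called.

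The Abcb1b probes differed in how far they moved and in whether the sexes differed. Among controls the dimmer probe was higher in males by 1.18 ± 0.39 on the log2 scale (limma adjusted p = 0.0242), with every control male above every control female, as for 2.69% of all tested probes. This call was lost without a slide term (1.10, adjusted p = 0.144), with median centring (0.94, adjusted p = 0.0845) and when control male 2, 3 or 4 or control female 2 or 9 was left out (adjusted p up to 0.127). On the brighter probe the sexes differed by 0.01, with a 95% interval from -0.42 to 0.43. Taken on the same arrays and without the slide term, the sex difference of the controls was larger on the dimmer than on the brighter probe by 1.16 on the log2 scale, the change at 2 mg/kg by 0.98 in males, and that in females by 1.79. Each of these 3 differences had an exact two-sided permutation p of 0.00794 (n = 5 against 5, the smallest possible), and the same value after adjustment over the 3. That test ignores slides, and values within slides were added after seeing the data. Within slides 1 to 4 the sex difference exceeded that of the brighter probe by 0.95, 1.29, 1.58 and 1.21, within slides 2, 4 and 8 the male change did by 0.59, 1.48 and 1.41, and within slides 2 and 7 the female change did by 2.11 and 1.76, each pair being 1 array against 1. The probe sequences were not used here, and reads of the paralogs Abcb1a and Abcb4 by these probes were not tested. The male over female difference in the furan effect was 0.78 on the brighter probe, with a 95% interval from 0.17 to 1.39 (adjusted p = 0.14), and -0.05 on the dimmer one, from -1.17 to 1.06 (adjusted p = 0.97). No pump passed this test, in which 1.14% of all tested probes were called. An unadjusted p under 0.05 was found for 19.1% of all tested probes and for 5 of the 9 pump probes other than that of Abcb1a, which no male array measured above background; without male 86 at 2 mg/kg the brighter Abcb1b probe was called, at 1.03 (adjusted p = 0.0218).

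Abcb1a, the other multidrug resistance gene, had little signal. Its probe was well above background in the liver channel on 6 of the 48 arrays, 4 of them control females, and on 0 of the male arrays. Control females were at 0.14, 0.75, 0.82, 0.91 and 1.09 and females at 2 mg/kg at 0.23, 0.23, 0.35, 0.41 and 0.50. The ranges overlapped through 1 control female on slide 7. No female at 2 mg/kg was above background, and by group means without a slide term the controls were at least 1.14-fold higher. All 6 arrays above background lay on slides 1 to 4, whose median shares of liver spots above background were 61.1% to 69%. Only 1 female at 2 mg/kg lay on these slides, and the others lay on slides 5, 7 and 8, at 43.2% to 56.3%. In these group means dose and slide cannot be told apart. Within slides 2 and 7 the treated female differed from the control by -0.58 and 0.215. Against control males, the liver signal of control females was at least 1.29-fold higher, a lower bound because the probe was not well above background in males. The probe passed the filter only through the control females, so no p-value is given for these differences. No change is given for males, in which neither group was above background.

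Abcg5, one subunit of the sterol pump, rose in males. Control males were at 1.40, 3.60, 3.68, 3.79 and 4.29 and males at 2 mg/kg at 4.34, 4.73, 4.75, 5.34 and 5.39. All treated males lay above all controls, as for 2.73% of all tested probes, the nearest by a narrow margin. The lowest control, on slide 8, stood apart from the other 4. The fitted log2 change was 2.05 ± 0.51 (limma adjusted p = 0.0031), 4.14-fold. Without a slide term it was 1.55 with an adjusted p of 0.113, so the call rested on that term. Within slides 2, 4 and 8 the differences were 1.05, 1.78 and 2.94.

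In females Abcg5 was not called. Control females were at 2.81, 3.25, 3.33, 3.86 and 3.96 and females at 2 mg/kg at 2.07, 3.11, 3.73, 4.32 and 5.32. The treated females spread on both sides of the controls. The fitted change was 1.22 ± 0.53, with a 95% interval from 0.14 to 2.29 (limma adjusted p = 0.15), array weights gave 1.34 with an adjusted p of 0.0362, and leaving out the slide term gave 0.27. Within slides 2 and 7 the differences were 1.36 and 1.0. The change in males exceeded that in females by 0.83, with a 95% interval from -0.60 to 2.27. Across the lower doses the fitted changes lay between 0.29 and 0.98 in males and between -0.51 and 0.62 in females. Abcg8, the other subunit, was well above background on 0 of the 48 arrays in either channel, so no level of it was measured.

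Abcb11, the bile salt export pump, was bright in liver and was not called in either sex. Control males were at 4.75, 5.75, 6.08, 6.14 and 6.32 and males at 2 mg/kg at 3.96, 4.52, 5.16, 5.27 and 6.07. The groups overlapped, with 2 treated males below all controls. The fitted change was -0.42 ± 0.16, with a 95% interval from -0.75 to -0.10 (limma adjusted p = 0.0523), and the differences within slides 2, 4 and 8 were -0.25, -0.81 and -0.79. Females at 2 mg/kg were at 4.80, 5.05, 5.21, 5.54 and 6.26 against 5.91 to 6.36 in their controls. Their unadjusted means differed by -0.70, but the fitted change with slide as a block was 0.12, with a 95% interval from -0.22 to 0.45. Slide means of this probe spanned 1.52 on the log2 scale, 3 of the 5 treated females lay on slides with no female control, and within slides 2 and 7 the differences were 0.33 and -0.36. The change in males was lower than that in females by -0.54, with a 95% interval from -0.99 to -0.08 (adjusted p = 0.175).

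Abcb4, the phospholipid flippase, showed no call with furan and a sex difference in controls. Control females were at 2.91, 3.01, 3.63, 3.64 and 3.72 and control males at 1.49, 2.68, 2.77, 3.03 and 3.06. Males were lower by -0.67 ± 0.17 on the log2 scale (limma adjusted p = 0.00324), although the ranges overlapped; the call was lost without a slide term (-0.78, adjusted p = 0.372), with the dim array kept (-0.61, adjusted p = 0.0797) and with the log ratio of the scanner software (-0.44, adjusted p = 0.23). The fitted changes at 2 mg/kg were 0.03 in males, with a 95% interval from -0.32 to 0.37, and -0.25 in females, from -0.61 to 0.11.

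Abcc2, the conjugate export pump, passed the test on p but not on fold change in males. Control males were at 4.99, 5.06, 5.13, 5.14 and 5.38 and males at 2 mg/kg at 5.33, 5.37, 5.41, 5.44 and 5.80. Only the highest control male overlapped the treated range. The fitted change of 0.38 ± 0.09 had a limma adjusted p of 0.00238 (0.0682 without a slide term and 0.558 with the dim array kept), but at 1.30-fold it stayed under the limit on fold change and was not called. Only with the liver channel alone, of the alternatives run on all arrays, was it called in males, at 0.61 (adjusted p = 0.000199). In females the fitted change was 0.11, with a 95% interval from -0.08 to 0.31. Control males lay below control females, between 4.99 and 5.38 against 5.46 and 5.73, as for 3.71% of all tested probes, a difference of -0.43 ± 0.09 (adjusted p = 0.000505) that was also under the limit on fold change. Between control males and control females, 2 of the 10 pump probes were called, the dimmer Abcb1b probe and Abcb4, where 6.59% of all tested probes were called.

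**Figure D2:**
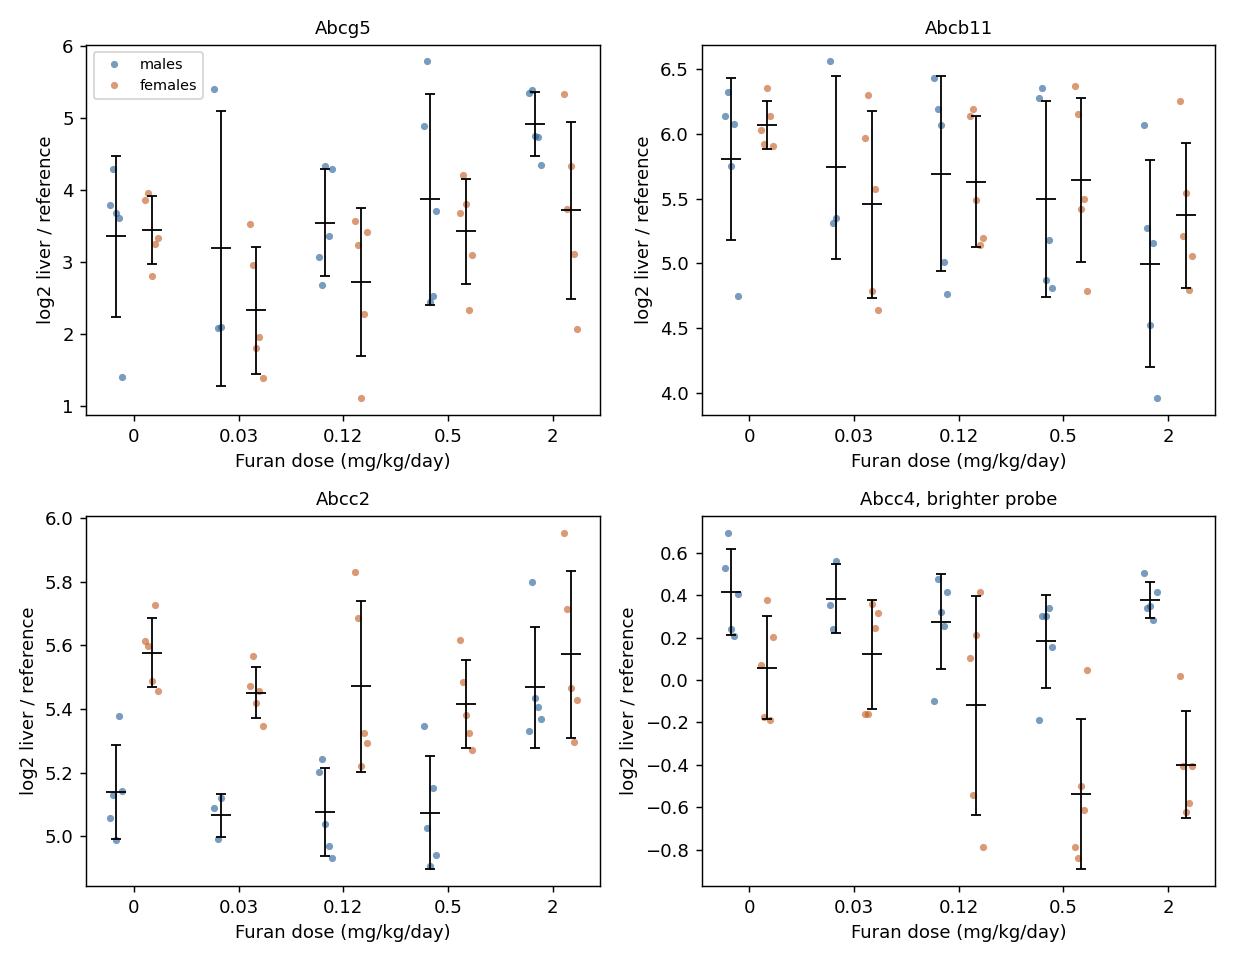
Log2 ratio of liver over reference by furan dose in mg/kg/day for Abcg5, Abcb11, Abcc2 and the brighter Abcc4 probe; points are single livers, males in blue and females in orange, and black bars are group means ± SD (n = 5, or 3 for males at 0.03 mg/kg). Abcg5 in males at 2 mg/kg lies between 4.34 and 5.39, above all control males, as for 2.73% of all tested probes. Abcb11 spreads over 3.96 to 6.07 in the same livers.

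Of the pumps that return substrates to blood, Abcc4 was measured by a brighter and a dimmer probe and was not called at any single dose. On the brighter probe control females were at -0.19, -0.18, 0.07, 0.20 and 0.38, females at 0.5 mg/kg at -0.84, -0.79, -0.61, -0.50 and 0.05, and females at 2 mg/kg at -0.62, -0.58, -0.40, -0.40 and 0.02. At each of these doses 4 of 5 treated females lay below all controls. The fitted changes were -0.67 ± 0.18 (limma adjusted p = 0.0746) and -0.57 ± 0.18 (adjusted p = 0.0521), neither called, and limma's moderated F test over all doses gave an adjusted p of 0.028, which ran from 0.00163 to 0.17 over the alternatives. It was 0.119 without a slide term, 0.0759 with the dim array kept, 0.0604 with the liver channel alone and 0.0552 with the series matrix. Within slides 2 and 7 the differences at 2 mg/kg were 0.19 and -0.83. With array weights both doses were called (-0.72 at 0.5 mg/kg, adjusted p = 0.00598, and -0.61 at 2 mg/kg, adjusted p = 0.0118). On the dimmer Abcc4 probe the change at 2 mg/kg in females was 0.32, with a 95% interval from -0.08 to 0.71, and it was -0.0036 without female 85, whose value stood apart at 1.34. In males the changes were -0.06, from -0.42 to 0.30, and -0.04, from -0.42 to 0.35.

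Abcc3, the other sinusoidal pump, was not tested, because it exceeded background clearly in liver on 10 of the 48 arrays and on at most 3 of any group. Control males were at -0.67, -0.35, -0.32, -0.18 and -0.14 and males at 2 mg/kg at -0.12, -0.04, 0.05, 0.13 and 0.51, with 0 of 5 and 1 of 5 arrays above background. With so few arrays above background these values are not ordered or compared. Control females were at 0.07 to 0.58 and females at 2 mg/kg at -0.10 to 0.90, with 3 of 5 above background in each. Abcg2, the breast cancer resistance protein, was not called. Control males were between 0.27 and 0.77 and males at 2 mg/kg between 0.56 and 1.01, and control females between 0.06 and 1.67 and females at 2 mg/kg between -0.03 and 1.49, so the groups overlapped in both sexes. Its fitted change was 0.36 in males, with a 95% interval from -0.02 to 0.75, and -0.29 in females, from -0.69 to 0.10, and the difference between these, 0.66 ± 0.26, had an adjusted p of 0.156.

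**Figure D3:**
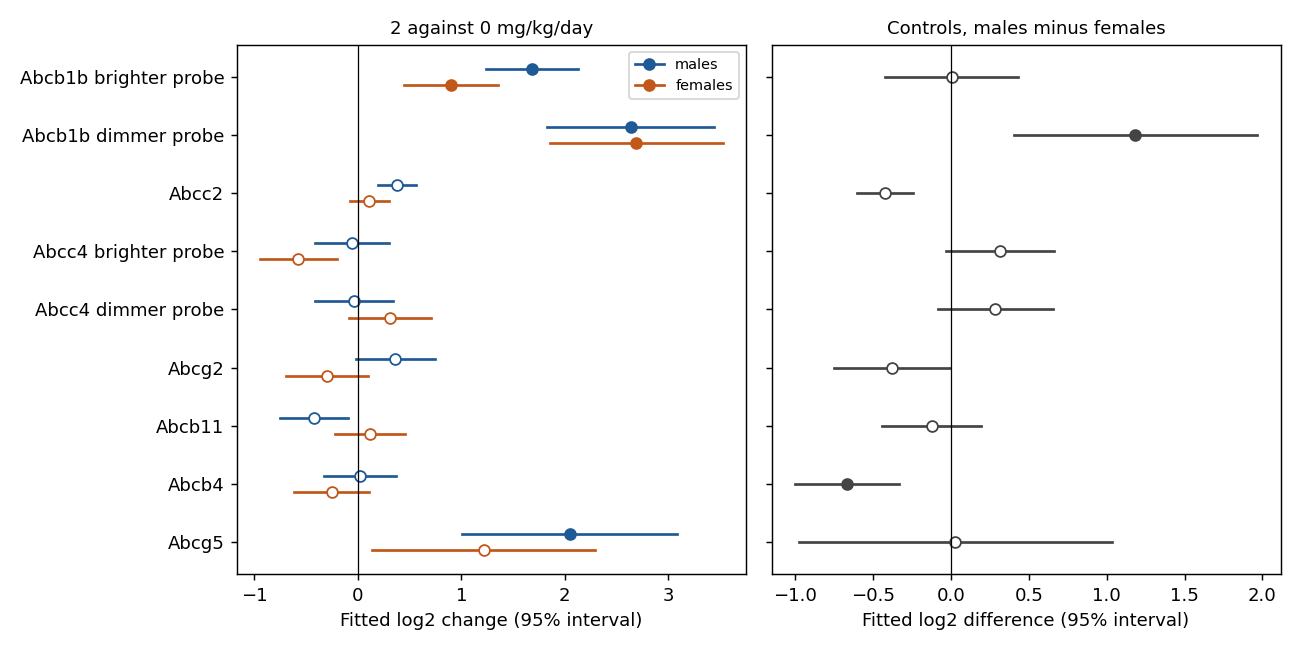
Fitted log2 change at 2 against 0 mg/kg/day (left; males in blue, females in orange) and fitted log2 difference of control males minus control females (right) for the 9 tested pump probes other than that of Abcb1a, with 95% intervals; filled points were called. Filled points on the left are both Abcb1b probes in each sex and Abcg5 in males.

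No pump was called at a lower dose in either sex. At 0.03, 0.12 and 0.5 mg/kg, 0%, 0.315% and 0.368% of all tested probes were called in males and 0.0175%, 0.0117% and 0.0292% in females. Of the 9 pump probes other than that of Abcb1a, 0, 0 and 3 in males and 0, 0 and 2 in females had an unadjusted p under 0.05. Over all tested probes the shares at an unadjusted p under 0.05 were 4.13%, 6.56% and 11.3% in males and 6.48%, 8.42% and 15.1% in females. The pump probes were both Abcb1b probes and Abcb4 in males at 0.5 mg/kg, and the dimmer Abcb1b and the brighter Abcc4 probe in females at 0.5 mg/kg. The Abcb1a probe is not counted because only control females brought it into the tests. Over all doses of a sex, limma's moderated F test called 5 of 10 pump probes in males (both Abcb1b probes, Abcg5, Abcc2 and Abcb11), where it called 18.8% of all tested probes. In females it called 3 of 10 (both Abcb1b probes and the brighter Abcc4 probe), where it called 3.1% of all tested probes. The F test has no limit on fold change. For Abcb11 in males its adjusted p was 0.0342, and from 0.0216 to 0.756 over the alternatives, the last without a slide term.

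Genes whose 8 log2 changes, at 4 doses in each sex, were most like those of the brighter Abcb1b probe were Lgals2, Ropn1, Ica1, Tmem120a and Kif12, with root mean square differences from 0.16 to 0.24. The 4 changes of a sex share its controls. Lgals2, which encodes a galectin, rose by 1.47 in males and 1.17 in females at 2 mg/kg on the log2 scale. The dimmer Abcb1b probe, by the same measure, stood at 0.84 from the brighter one. At 2 mg/kg the changes of the 5 genes ran from 1.21 to 1.47 in males and from 0.67 to 1.17 in females. The genes were chosen for likeness over changes that include those at 2 mg/kg, so no test of them is read.

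The carriers that load the hepatocyte from blood were set beside the pumps. Of 10 tested uptake carriers, 5 fell and 0 rose in males at 2 mg/kg, where 2.49% of all tested probes fell. The list was drawn up with earlier results of these data known, so this count is no test of the list. Slco2b1, an organic anion transporter, fell by 0.91 on the log2 scale (limma adjusted p = 6.02e-06), Slco1b2 by 0.79 (0.00166), Slc10a1, the sodium-dependent bile salt carrier, by 0.69 (0.00386), Slco1a1 by 0.68 (0.00119) and Slc29a1, a nucleoside carrier, by 0.66 (1.48e-05). The median change over the list was -0.60, beside -0.02 over all tested probes. With each array centred on its median in place of loess, 1 of the 10 was called, with no slide term and the dim array kept 0 were, and with either change alone 3 and 2 were, while 9 of 10 stayed below 0 under all 4. In females limma called 0 of 10, with 3 at an unadjusted p under 0.05, where 24.2% of all tested probes were, and the median was -0.15. The 10 hepatocyte markers had a median change of -0.40 in males and -0.04 in females.

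Of the other genes tied to the pumps, few passed the test, near the share of all tested probes, and nothing is read from their counts. At 2 mg/kg 5.22% of all tested probes were called in males and 1.45% in females, and 35.7% and 24.2% had an unadjusted p under 0.05. Of 8 tested partners in efflux and bile formation limma called 0 at 2 mg/kg in either sex, with 3 in males and 2 in females at an unadjusted p under 0.05. Of 10 genes that anchor pumps or carry them to the membrane 1 rose in males, Ezr, which encodes ezrin, by 0.68 (limma adjusted p = 0.000297), a call lost only with no slide term and the dim array kept (0.73, adjusted p = 0.0821). Of 16 regulators 1 rose in males, Ppara, a fatty acid sensing nuclear receptor, by 0.89 at 2 mg/kg (adjusted p = 0.00038) and by 0.76 at 0.5 mg/kg (adjusted p = 0.0407). At 2 mg/kg Ppara was not called without a slide term (0.57, adjusted p = 0.37, or 0.434 with the dim array kept too) or with median centring (0.58, under the limit on fold change). Nr1h4, the bile acid receptor, had a change of -0.58 (adjusted p = 0.00199), under the limit on fold change, which it passed without a slide term and with slide as a random block, and Nfe2l2, which encodes NRF2, one of -0.13 (adjusted p = 0.6). Of 21 other ABC family members 1 fell in males, Abcc8, a subunit of potassium channels, by 1.02 (adjusted p = 0.00038), and without a slide term its change was -1.67 (adjusted p = 0.0521, or 0.113 with the dim array kept too). In females limma called 0 genes of these 4 lists, with 2, 3, 2 and 5 of their members at an unadjusted p under 0.05.

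Markers of other cell types were measured in the same livers, to be read beside the shares of all tested probes just given. Of 6 tested cholangiocyte markers, Spp1, Epcam and Krt19 rose in males at 2 mg/kg, by 0.69, 0.92 and 0.76 (limma adjusted p = 0.00832, 5.72e-05 and 0.0141), and Epcam rose in females, by 0.60 (0.0255). Cldn4, Krt7 and Aqp1 had changes of 0.33, 0.02 and -0.10 in males, not called. The log2 of the summed liver signal of all 6 ranged from 11.1 to 11.2 in control males and from 11.2 to 12.3 in males at 2 mg/kg. Each tested marker was above background on some array of every group. Sox9 and Cftr, defining genes of that cell type, were not tested. Of 8 stellate markers Col3a1, Lrat and Rgs5 rose in males, by 0.85, 0.90 and 0.85 (adjusted p = 0.0444, 0.0211 and 3.6e-05), while Pdgfrb, Acta2 and Reln had changes of -0.19, -0.17 and -0.05, not called. Of 3 erythroid markers Hbb and Slc4a1 fell, by 0.77 and 0.70 (adjusted p = 0.0465 and 0.00953). In males without a slide term 0 stellate and 0 erythroid markers were called, and over the alternatives that leave out no array 0 to 3 and 0 to 2. In females Pdgfrb fell without a slide term, with or without the dim array, and with the scanner software's ratio. Slc4a1 fell in females with median centring. The cholangiocyte count in males was 3 without a slide term, 1 with the dim array kept as well, where only Epcam was called, and 1 to 4 over those alternatives. In females the Epcam call was lost with the dim array kept, with or without a slide term. It was also lost with median centring or the liver channel alone, while array weights called Krt19 too. limma called 0 of the 10 hepatocyte, 8 macrophage and 5 endothelial markers tested at 2 mg/kg in either sex, with 8, 1 and 0 at an unadjusted p under 0.05 in males and 2, 0 and 0 in females. All 10 hepatocyte markers had changes below 0 in males. Some passed on limma's adjusted p but not on fold change, the lowest being 0.000408 for albumin (-0.51). In males 5 hepatocyte markers fell with the scanner software's ratio and 3 with the series matrix, albumin among them both times, and with the liver channel alone 1 rose, Apoa1, while array weights called 1 endothelial marker, Lyve1. The part of these cell types in the changes of Abcb1b and Abcg5 was not tested.

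**Figure D4:**
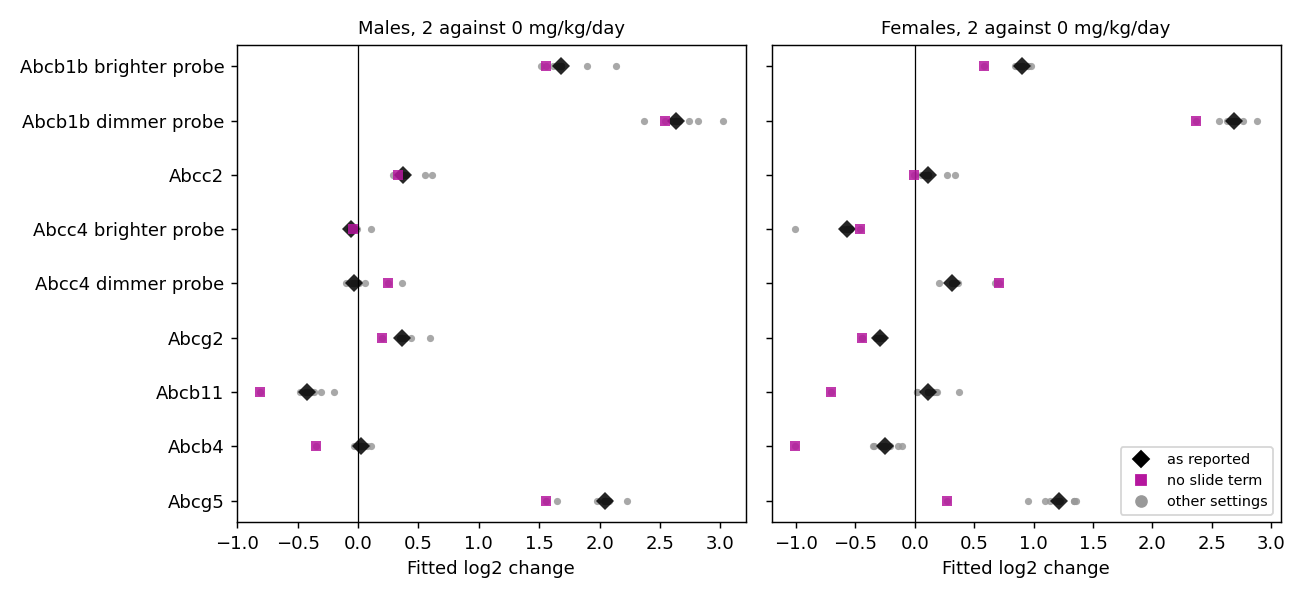
Fitted log2 change at 2 against 0 mg/kg/day for the 9 tested pump probes other than that of Abcb1a in males (left) and females (right) as reported (black diamonds), without a slide term (magenta squares) and under the other ways of processing (grey points). Both Abcb1b probes stay above 0 throughout, while Abcb11 in females moves from 0.12 as reported to -0.70 without a slide term.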

How the data were processed

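Liver RNA was measured on 49 2-colour Agilent arrays, with no dye swap. Per the file headers, the deposited scanner files, read by Agilent Feature Extraction 10.7.3.1 per the submitters' processing notes, hold median pixel intensity per spot and channel, quality marks and the software's log10 ratio. The deposited series matrix holds log2 ratios that the authors normalised. Of its 49 columns, 46 matched a scanner file at r of at least 0.99, all in the labelled group, but 7 under the same animal number, so groups and not animals were used from it.

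Intensities were corrected by normexp (offset 50) and loess in limma 3.58.1 (R 4.3.3), and spots of a probe were averaged after spots marked as outliers were left out. The number of arrays limits precision. Probes were named by accession through RefSeq (GRCr8). limma was fitted to all 17128 tested probes with 1 mean per group and slide as a fixed block, after 1 array under 20% of liver spots above background was left out. No slide term is stated for the study's own model. Alternatives cover scaling, filters, block and each array left out. The pumps, lists and motifs were chosen with earlier results of these data known. All 10 pumps are named, as are list genes called at 2 mg/kg by their brightest probe over both channels. So are the 5 genes most like Abcb1b by the smallest root mean square difference. Nr1h4, Nfe2l2, Cldn4, Krt7, Aqp1, Pdgfrb, Acta2, Reln, Apoa1 and Lyve1 were named after their values were seen. "At least" folds use the liver channel and the lowest signal above background on each array. The steps were tested on simulated data. Figures used matplotlib 3.10.9.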

Additional observations from a re-analysis of the deposited data

Results flagged for a closer look

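Of 108 groups of 5 livers examined for a liver far from the other 4 of its group, 6 stood out by Dixon's 95% criterion, and chance alone flags about 1 in 20 groups. On the dimmer Abcb1b probe, female 82 at 2 mg/kg was at 0.0779 while the other 4 were between 1.49 and 2.00. For Abcc2, male 84 at 2 mg/kg was at 5.80 while the others were between 5.33 and 5.44. On the dimmer Abcc4 probe, female 85 at 2 mg/kg was at 1.34 while the others were between -1.0 and -0.34. For Abcg2, female 90 at 2 mg/kg was at 1.49 while the others were between -0.03 and 0.35. Control male 6, the only control male on slide 8, was low for Abcb4, at 1.49 against 2.68 to 3.06, and for Abcg5, at 1.40 against 3.60 to 4.29.

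Furan effects at 2 mg/kg that differed between the sexes by limma's interaction test were found for 2 uptake carriers and for no pump, where 1.14% of all tested probes were called. For Slco2b1 the male change was lower than the female one by -0.91 on the log2 scale (adjusted p = 0.00829), with changes of -0.91 in males and 0.01 in females. It was -0.53 without a slide term (adjusted p = 0.942), -1.10 with the dim array kept (0.219) and -0.55 with median centring (0.0903). For Slc22a8 the difference was -1.08 (adjusted p = 0.048), with changes of -0.55 in males and 0.54 in females, neither of which was called within its sex. Control females were far lower than control males for Slc22a8, by 5.27 on the log2 scale (limma adjusted p = 3.45e-21). Its probe was not above background on every array. The interaction for Slc22a8 was not called under 8 of 11 alternatives, among them no slide term (-0.91, adjusted p = 0.824), the scanner software's ratio (-1.91, 0.157) and the liver channel alone (-0.41, 0.379).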

How the results depend on the processing

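The calls of both Abcb1b probes in males and of the dimmer one in females held under every alternative and with each array left out. The Abcg5 call in males was lost without a slide term (1.55, adjusted p = 0.113, or 0.188 with the dim array kept too). The count of pump probes called at 2 mg/kg was 2 in females as reported, 1 without a slide term (with or without the dim array), 1 with median centring and 4 with array weights, and 1 to 3 with an array left out (1 without female 83). In males it stayed at 3 with any array left out. At lower doses in females it was 0 as reported, 1 with slide as a random block or median centring (Abcc4, brighter probe, at 0.5 mg/kg), 2 with array weights, and 0 to 1 with an array left out (1 without control female 11, female 51 at 0.12 or female 68 at 0.5 mg/kg). By the F test the count in males was 5 as reported, 2 without a slide term (with or without the dim array), 3 with the dim array kept or with the scanner software's log ratio, and 3 to 5 with an array left out (3 without males 81 or 87 at 2 mg/kg). In females it was 3 as reported, 1 without a slide term, with the dim array kept, with both, or with the liver channel alone, 5 with array weights, and 1 to 3 with an array left out (1 without females 21 or 24 at 0.03, 62, 64, 70 or 72 at 0.5, or 83, 85 or 92 at 2 mg/kg). Between controls it was 2 as reported, 0 without a slide term (with or without the dim array), 1 with the dim array kept, and 1 to 3 with an array left out (1 without control males 4 or 2 or control female 2). The interaction gave 0, and 0 to 1 with an array left out. Between 0.5 and 2 mg/kg the count in males was 2 as reported, 0 without a slide term (with or without the dim array) or with median centring, and 1 to 2 with an array left out (1 without males 63 or 65 at 0.5 or 87 at 2 mg/kg), and in females 0 as reported and 1 with array weights. Where not stated, the cause was not tested.

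Changes of sign concerned values that were not called. Without a slide term, with or without the dim array, Abcb11 and Abcc2 in females gave -0.70 and -0.0051, Abcb4 and the dimmer Abcc4 probe in males -0.35 and 0.25, and the male over female controls difference -0.0574 on the brighter Abcb1b probe and -0.0873 for Abcg5. That difference on the brighter Abcb1b probe was also -0.0014 with array weights, -0.0793 with the liver channel alone, -0.026 with the scanner software's ratio, -3e-04 with the series matrix, -0.32 with median centring and -8e-04 with slide as a random block. For Abcb11 it was 0.011 with the dim array kept and 0.28 with the scanner software's ratio, and for Abcg5 -0.0401 with array weights. In males Abcb4 gave -0.0081 with the scanner software's ratio and -0.0309 with slide as a random block, the brighter Abcc4 probe 0.11 with median centring, and the dimmer one 0.0113 with the liver channel, 0.36 with the scanner software, 0.0554 with median centring and 8e-04 with slide as a random block. With an array left out, signs changed over ranges from -0.13 to 0.0253 (brighter Abcc4, males), -0.17 to 0.0579 (dimmer Abcc4, males), -0.0738 to 0.16 (Abcb4, males), -0.0036 to 0.42 (dimmer Abcc4, females), and for controls -0.14 to 0.0947 (brighter Abcb1b), -0.22 to 0.0247 (Abcb11) and -0.33 to 0.21 (Abcg5).

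Median centring moved the median of all probes between control males and females to -0.16 from 0.02 and the share of higher calls from 52.2% to 85% in males at 2 mg/kg, from 41% to 24.8% in females, and from 44.3% to 17.4% between controls. Of all tested probes, 894 were called in males, 390 without a slide term and with the dim array, 1427 with the scanner software's ratio and 552 without male 87. In females 249 were called, 118 with the dim array kept, 115 without a slide term as well, 456 with array weights, 515 with the scanner software's ratio, 137 with median centring, 112 among probes above background on every array, 99 without control female 2 and 129 without female 83. Between controls 1128 were called, 686 without a slide term, 544 with the dim array as well and 497 above background on every array, and in the interaction 196, 5 without a slide term, 29 with the dim array kept, 2 with both, 317 with array weights and 106 among all probes. As an alternative, the animal number shared by a male and a female of a dose was taken as a replicate block: for 8 such pairs its correlation was 0.02, and the counts stayed at 3 and 2 at 2 mg/kg.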
